A study of Mus musculus with 8 samples.

Results

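The genes described here encode 37 enzymes and enzyme subunits that make nucleotides or supply the one-carbon units used in making them. They are a list of named genes, put together with earlier results of these data known, and all 37 of 37 were found, each as a single row, among 46113 gene IDs, of which 21991 have annotated exons. Their RNA was measured in 2 fractions of C57BL/6 mouse bone marrow taken at 8 to 10 weeks of age, both sorted as lineage-negative cells that stained for CD150, Sca1 and c-Kit. The HSC fraction (hematopoietic stem cells) lacked CD34, the HPC fraction (hematopoietic progenitor cells) carried it, and each had 4 libraries from animals with no treatment given. The protocol text names 5000 sorted cells and speaks of HSC alone, and the labels do not tell whether each library stands for its own animal, so a p-value here reflects library-to-library spread, which may be technical.

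As background, purine nucleotides are built stepwise on an activated ribose, phosphoribosyl pyrophosphate (PRPP), up to inosine monophosphate (IMP), from which separate branches lead to adenine and guanine nucleotides. Pyrimidine nucleotides are built first as a ring and then joined to PRPP, and ribonucleotide reductase turns ribonucleotides into the deoxynucleotides that DNA replication consumes. Serine made from a glycolytic intermediate gives its carbon to folate, and folate-bound carbon is used in purine and thymidylate synthesis. Salvage enzymes rebuild nucleotides from free bases and nucleosides, and dividing blood progenitors use both routes.

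The libraries held 16291733 to 19070313 exon reads in HSC and 18223082 to 20564901 in HPC. Of the exon reads, 48.6% to 56.8% in HSC and 51.7% to 56.6% in HPC spanned an exon junction. Cd34, which parted the fractions in the sort, was at 102, 118, 139 and 122 CPM (read counts scaled to library size) in HSC and at 1205, 1285, 1271 and 1342 CPM in HPC. Slamf1, which encodes CD150, the surface protein both fractions were sorted for, averaged 37.6 CPM in HSC but 3.14 CPM in HPC, and Kit averaged 924 CPM in HSC with 746 CPM in HPC. All 37 enzymes passed the filter on low counts, and the smallest count of any of them in a library was 229 reads.

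Most of these enzymes were lower in HSC. With the edgeR quasi-likelihood test and p-values adjusted over 12751 genes (Benjamini-Hochberg, threshold 0.05), 21 of 37 were lower in HSC, 2 were higher and 14 were not called. Among all genes tested 17.6% were lower and 19.6% higher, against 56.8% and 5.41% of the enzymes. For the 21 lower enzymes each HSC library lay below each HPC library, and for both higher ones each HSC library lay above, as was so for 17.2% and 19.5% of all genes tested. The median log2 change of the 37 was −0.37, where that of all genes tested was 0.00. The changes were small, from −1.31 to 0.58 on the log2 scale, and 4 enzymes were at least 2-fold lower (6.08% of all genes tested were called and at least 2-fold lower). When the test itself required a change of over 1.5-fold, 6 of the 37 were lower and 0 higher, beside 6.30% and 10.2% of all genes tested. At an adjusted p under 0.01 (edgeR), 19 were lower and 2 higher, beside 12.5% and 14.3%. Levels of these RNAs come from bulk samples, in which fewer cells expressing a gene and less of its RNA per cell cannot be told apart.

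**Figure D1:**
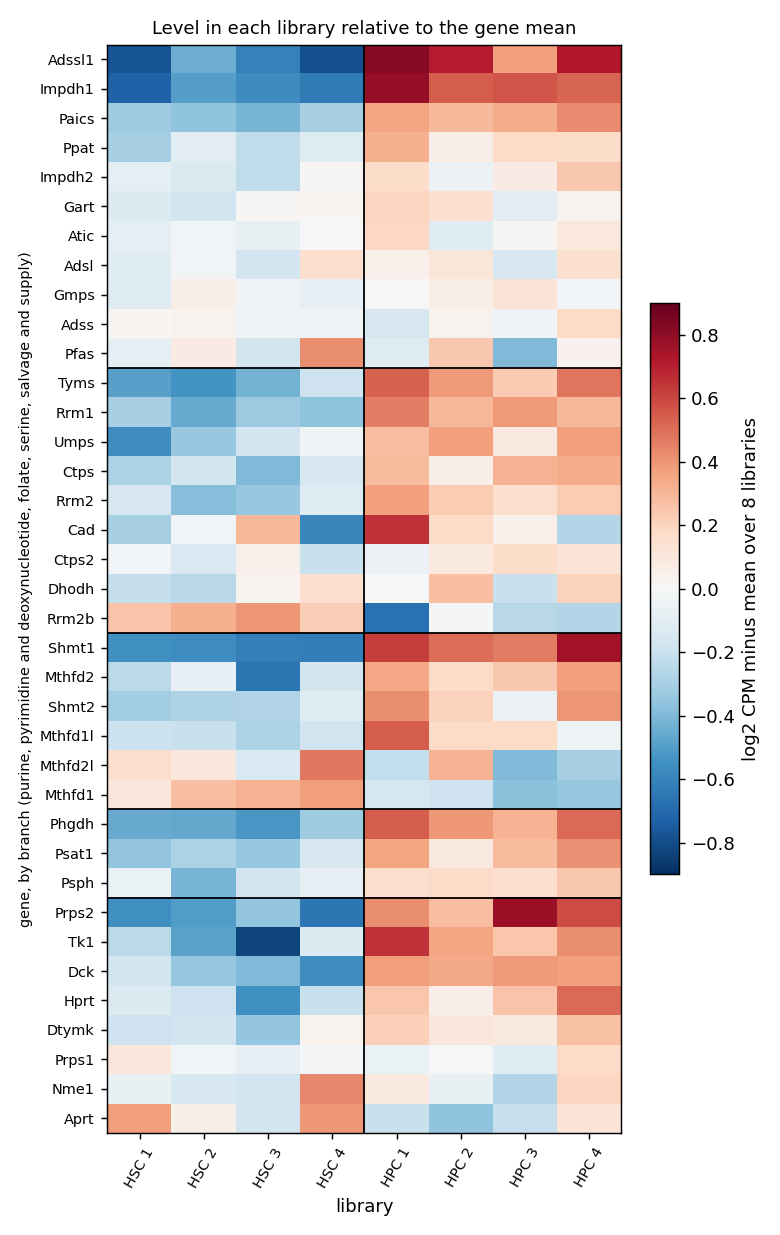
Level of each of the 37 genes (rows, by branch) in each library (columns, HSC left and HPC right) as log2 CPM minus the gene's mean over 8 libraries, blue below and red above. Adssl1, Impdh1 and Shmt1 are blue in the 4 HSC libraries and red in the 4 HPC libraries, Mthfd1 and Rrm2b show mostly the opposite colours, and rows such as Adss and Gmps stay near white.

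Among the sequences before these genes, those of Ppat and Paics stand out by position, since the pair lies head to head on chromosome 5. Ppat, which encodes the enzyme of the first committed step of purine synthesis, runs on the minus strand (gene 231327, 76913249 to 76951578, mm10, 11 exons). Paics, which encodes an enzyme of later steps, runs on the plus strand (gene 67054, 76951308 to 76967507, 19 exons), so the annotated starts overlap by 271 bases, and reads in this stretch cannot be assigned without strand. The windows below are from RefSeq (GRCm38.p6), reach from 250 bases before to 50 bases after an annotated start, and are shown for this pair and for Tyms and Prps2, both of which were also lower in HSC. Capitals mark exact matches, on either strand, to an E2F motif (TTTCCCGC, TTTGGCGC, TTTGCCGC or TTTCGCGC) or to the E-box CACGTG.
Ppat, chr5:76951529-76951828, minus strand: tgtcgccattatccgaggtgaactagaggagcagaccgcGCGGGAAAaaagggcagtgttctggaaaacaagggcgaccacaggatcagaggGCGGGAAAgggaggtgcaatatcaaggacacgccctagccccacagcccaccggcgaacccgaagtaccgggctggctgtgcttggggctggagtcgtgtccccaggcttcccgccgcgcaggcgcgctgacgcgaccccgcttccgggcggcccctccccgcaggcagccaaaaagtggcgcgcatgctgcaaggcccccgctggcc
Paics, chr5:76951052-76951351, plus strand: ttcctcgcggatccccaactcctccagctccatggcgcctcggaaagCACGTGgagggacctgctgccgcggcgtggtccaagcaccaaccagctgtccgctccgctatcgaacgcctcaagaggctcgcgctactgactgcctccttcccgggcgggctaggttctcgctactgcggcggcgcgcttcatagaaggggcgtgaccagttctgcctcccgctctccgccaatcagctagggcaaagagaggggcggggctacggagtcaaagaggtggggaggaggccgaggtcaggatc
Tyms, chr5:30073576-30073875, minus strand: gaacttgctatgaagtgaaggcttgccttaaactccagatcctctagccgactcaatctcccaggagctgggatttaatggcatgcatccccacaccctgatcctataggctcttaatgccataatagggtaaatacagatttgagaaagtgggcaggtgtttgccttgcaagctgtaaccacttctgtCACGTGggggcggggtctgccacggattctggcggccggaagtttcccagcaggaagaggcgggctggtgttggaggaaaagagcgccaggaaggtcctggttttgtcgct
Prps2, chrX:167382700-167382999, minus strand: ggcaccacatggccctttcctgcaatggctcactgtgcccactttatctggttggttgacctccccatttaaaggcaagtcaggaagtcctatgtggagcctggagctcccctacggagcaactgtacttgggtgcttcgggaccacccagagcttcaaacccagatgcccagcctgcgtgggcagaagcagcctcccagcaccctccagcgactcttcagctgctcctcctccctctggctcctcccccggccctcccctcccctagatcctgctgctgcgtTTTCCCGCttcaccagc
In the Ppat window both matches read TTTCCCGC on the strand opposite to the gene and begin 211 and 158 bases before the start. The Paics match begins 203 bases and the Tyms match 61 bases before the start, and the Prps2 match lies at bases 34 to 41 after it.

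RefSeq windows were at hand for 34 of the 37 genes, 40 windows in all, and not for Dhodh, Pfas and Rrm2b. The E-box was found in 7 of the 40 windows (17.5%), and in 7.15% of all 32851 windows. These 7 windows belong to 6 genes, of which Dtymk, Paics and Tyms were lower in HSC and Atic, Impdh2 and Nme1 were not called. An E2F motif was found in 2 of 40 windows (5%), those of Ppat and Prps2, and in 2.26% of all windows. The CCAAT box (CCAAT, either strand) was in 37.5% of the 40 windows and in 37.4% of all. The ATF4 element (TGATGNAAN) was in 1 window of 40, that of Prps1 (2.5%, and 3.95% of all). These are matches of letters in short windows, described without a test.

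In purine synthesis some genes were lower in HSC and others were not called, and at the IMP branch point isozymes of the same step differed. Of 11 enzymes, 4 were lower in HSC (Adssl1, Impdh1, Paics and Ppat), none was higher and 7 were not called, with a median log2 change of −0.14. The lower genes were the first enzyme of the route, one enzyme midway and an isozyme on each side of the IMP branch point, where adenine and guanine nucleotides part. Impdh1 encodes one of the IMP dehydrogenases, which commit IMP to guanine nucleotides (gene 23917, chromosome 6, 29200436 to 29216364, 22 exons). It was at 51.4, 60.1, 57.3 and 54.6 CPM in HSC and at 147, 124, 126 and 122 CPM in HPC, 2.33-fold lower (log2 −1.22 ± 0.10 SE, edgeR adjusted p = 2.7e-07). The HPC libraries were close to each other except replicate 1, which was the highest, and the fractions did not overlap. Adssl1, the adenylosuccinate synthetase isozyme first known from muscle, which starts the adenine branch, had the largest decrease among the 37 (gene 11565, chromosome 12, 112620047 to 112641355, 13 exons). Its values were 41.4, 52.4, 46.6 and 41.0 CPM in HSC and 125, 116, 91.9 and 117 CPM in HPC, 2.48-fold lower (log2 −1.31 ± 0.12, edgeR adjusted p = 1.0e-06).

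Per kilobase of exon Paics was the most abundant of the called purine enzymes. It stood at 470, 456, 440 and 476 CPM in HSC and at 751, 717, 738 and 787 CPM in HPC, 1.62-fold lower (log2 −0.70 ± 0.08, edgeR adjusted p = 1.1e-05). The libraries of a fraction lay close together and far from the other fraction. Its neighbour Ppat was 1.29-fold lower, at 80.3, 92.6, 84.2 and 91.1 CPM in HSC and 124, 103, 112 and 111 CPM in HPC (log2 −0.37 ± 0.09, edgeR adjusted p = 0.0067). The other isozymes of the IMP branch point were not called. Impdh2 was at 450, 437, 409 and 482 CPM in HSC and 536, 462, 503 and 567 CPM in HPC, with overlapping fractions (log2 −0.22 ± 0.09, edgeR adjusted p = 0.087). With the replicate number as a block Impdh2 passed at an adjusted p of 0.045. Only 44.0% of its exon reads were uniquely placed, so its level is uncertain, and from uniquely placed reads alone its log2 change was −0.23. Adss was at 181, 183, 174 and 175 CPM in HSC and 161, 183, 175 and 203 CPM in HPC (log2 −0.02 ± 0.09, edgeR adjusted p = 0.88). The other enzymes not called were Gart, Pfas, Adsl, Atic and Gmps, with means of 150 to 270 CPM in HSC and 165 to 249 CPM in HPC and log2 changes of −0.14, 0.12, −0.08, −0.09 and −0.08 in this order. These carry the middle and last steps to IMP and, for Gmps, the last step to guanosine monophosphate.

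Per kilobase of exon the purine enzymes spanned a wide range of levels. This scale divides by the annotated exon length, which may not be that of the RNA present, so ranks between genes are approximate. Impdh2 (232 in HSC and 269 in HPC, as CPM per kilobase) and Paics (186 and 301) were the highest. The rank of Impdh2 is uncertain, since only 44.0% of its exon reads were uniquely placed. Atic followed with 85.0 in HSC and 90.8 in HPC. The lowest in HSC were Impdh1 (20.1 in HSC, 46.8 in HPC), Ppat (21.7 and 28.0), Gmps (23.9 and 25.3) and Adssl1 (25.3 and 62.8).

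**Figure D2:**
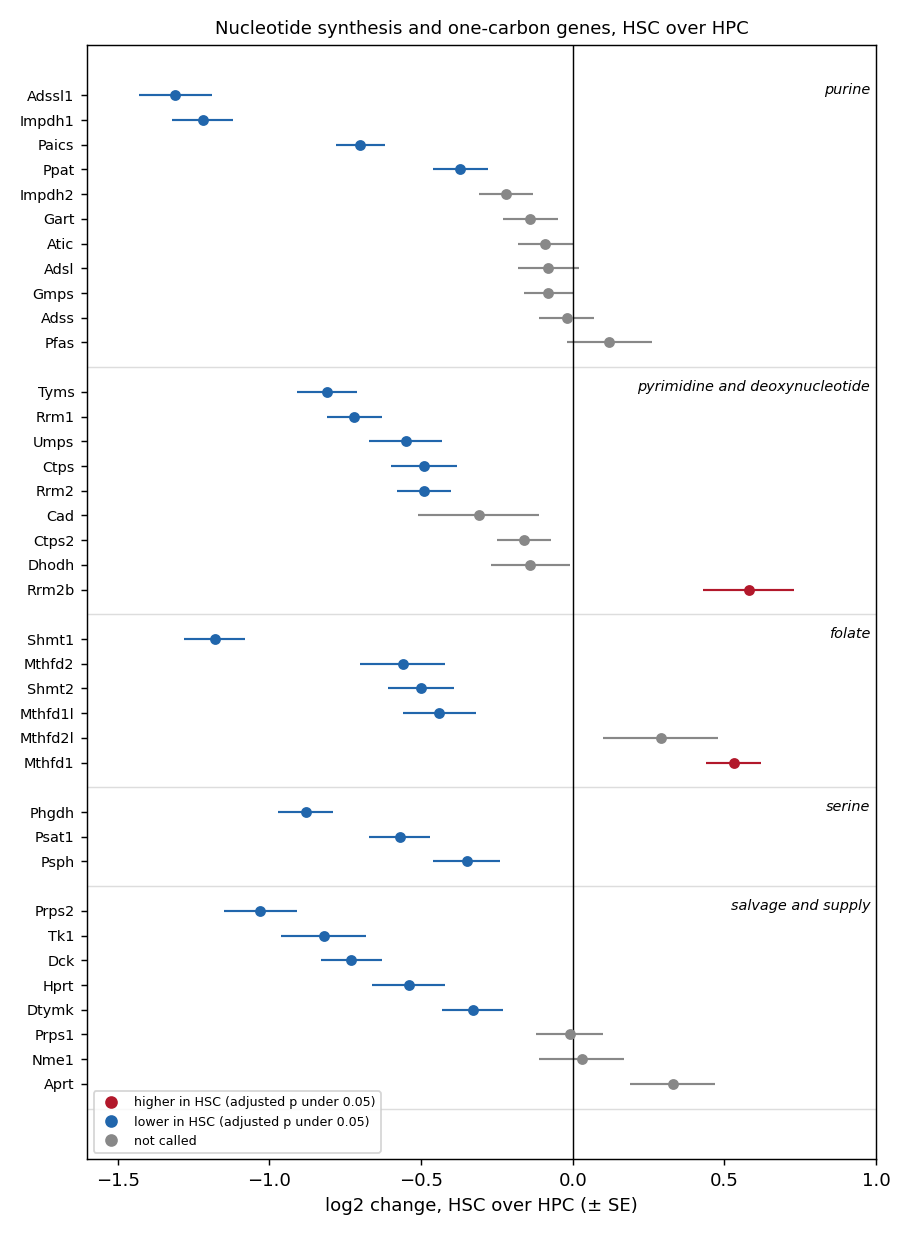
Log2 change of each of the 37 genes, HSC over HPC (x axis, points with SE from edgeR), by branch. Blue points (21 genes, from Adssl1 at −1.31 to Dtymk at −0.33) were called lower in HSC, red points (Rrm2b at 0.58 and Mthfd1 at 0.53) higher, and grey points (14 genes) were not called.

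In pyrimidine and deoxynucleotide synthesis 5 of 9 genes were lower in HSC (Tyms, Rrm1, Rrm2, Umps and Ctps), 1 was higher (Rrm2b) and 3 were not called, with a median log2 change of −0.49. Rrm1 encodes the large subunit of ribonucleotide reductase, which supplies deoxynucleotides (gene 20133, chromosome 7, 102441695 to 102469771, 19 exons). Its levels were 272, 244, 266 and 260 CPM in HSC and 460, 411, 435 and 409 CPM in HPC, 1.65-fold lower (log2 −0.72 ± 0.09, edgeR adjusted p = 1.1e-05). Tyms encodes thymidylate synthase, which makes the thymine nucleotide of DNA with a folate-bound carbon (gene 22171, chromosome 5, 30038546 to 30073625, 12 exons). It was at 117, 113, 122 and 144 CPM in HSC and at 237, 214, 193 and 229 CPM in HPC, 1.76-fold lower (log2 −0.81 ± 0.10, edgeR adjusted p = 1.9e-05). For both genes the highest HSC library was well below the lowest HPC library. Umps and Ctps moved less than Rrm1 and Tyms. Umps, which completes uridine monophosphate, was 1.46-fold lower at 205 ± 31.5 CPM in HSC, against 299 ± 26.4 CPM in HPC (SD, n = 4 each; edgeR adjusted p = 0.0016). Ctps, a CTP synthase, was 1.41-fold lower at 55.8 ± 4.42 CPM in HSC, against 78.6 ± 6.62 CPM in HPC (edgeR adjusted p = 0.0019). Cad, which carries the first steps of the ring, was not called and varied most between libraries, at 60.6, 73.2, 91.7 and 49.7 CPM in HSC and 117, 84.2, 77.1 and 62.0 CPM in HPC. Dhodh, the mitochondrial step, was not called at 60.3 ± 8.17 CPM in HSC, against 66.5 ± 9.61 CPM in HPC, nor was Ctps2 at 98.3 ± 7.64 and 110 ± 6.69 CPM.

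The small subunits of ribonucleotide reductase went in opposite directions. Rrm2, the subunit that accumulates in S phase (gene 20135, chromosome 12, 24708254 to 24714146, 10 exons), was at 197, 168, 173 and 202 CPM in HSC and at 283, 256, 244 and 256 CPM in HPC. It was 1.40-fold lower (log2 −0.49 ± 0.09, edgeR adjusted p = 7.7e-04). Rrm2b, the p53-inducible subunit used outside S phase and in DNA repair (gene 382985, chromosome 15, 37923952 to 37961110, 13 exons), was at 27.0, 28.3, 29.8 and 26.4 CPM in HSC. In HPC it was at 14.2, 22.3, 19.0 and 18.8 CPM, so that HSC stood 1.5-fold higher (log2 0.58 ± 0.15, edgeR adjusted p = 0.0069). The lowest HSC library, at 26.4 CPM, lay above the highest HPC library, at 22.3 CPM. Of the gene reads of Rrm2b, 93.2% in HSC and 95.7% in HPC fell in introns, and on all gene reads its change was −0.11 and not called (edgeR adjusted p = 0.52). Per kilobase of exon Rrm2 was the highest of the 9 genes in both fractions (84.9 in HSC and 119 in HPC) and Rrm2b the lowest (4.65 and 3.10, all as CPM per kilobase).

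The folate enzymes, which interconvert one-carbon forms in the cytosol and in mitochondria, divided into 4 lower in HSC, 1 higher and 1 not called, with a median log2 change of −0.47. Shmt1 and Shmt2 move the carbon of serine to folate, Shmt1 in the cytosol and Shmt2 in mitochondria. Shmt1 (gene 20425, chromosome 11, 60788886 to 60811265, 14 exons) was at 44.8, 44.6, 42.8 and 42.6 CPM in HSC and 101, 93.2, 90.9 and 111 CPM in HPC, 2.27-fold lower (log2 −1.18 ± 0.10, edgeR adjusted p = 4.4e-07). The HSC libraries differed from each other by little beside this gap. Shmt2 (gene 108037, chromosome 10, 127517123 to 127522444, 13 exons) was at 119, 122, 123 and 137 CPM in HSC and 198, 171, 143 and 195 CPM in HPC, 1.41-fold lower (log2 −0.50 ± 0.11, edgeR adjusted p = 0.0023), with HPC replicate 3 nearest to the HSC libraries.

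Mthfd1, the cytosolic folate enzyme that turns formate into the carbon donors of purine and thymidylate synthesis, went the other way (gene 108156, chromosome 12, 76255232 to 76319820, 28 exons). It was at 193, 217, 223 and 233 CPM in HSC and at 161, 158, 139 and 142 CPM in HPC, which is 1.44-fold higher (log2 0.53 ± 0.09, edgeR adjusted p = 3.7e-04). The mitochondrial enzymes of the same route were lower or not called. Mthfd1l, which releases formate from mitochondria, was at 63.1, 62.6, 59.3 and 63.8 CPM in HSC and 105, 81.3, 81.8 and 70 CPM in HPC (log2 −0.44 ± 0.12, edgeR adjusted p = 0.0095). Mthfd2, the mitochondrial dehydrogenase and cyclohydrolase, was at 29.6, 33.2, 22.2 and 31.2 CPM in HSC and 44.6, 39.5, 41.3 and 45.3 CPM in HPC (log2 −0.56 ± 0.14, edgeR adjusted p = 0.0055). In both the fractions lay apart. Its relative Mthfd2l was at 18.8, 18.1, 15.3 and 23.4 CPM in HSC and 14.4, 20.9, 12.8 and 13.7 CPM in HPC, with overlapping fractions and no call (log2 0.29 ± 0.19, edgeR adjusted p = 0.26). Per kilobase of exon Mthfd1 ranked first of the 6 in HSC (65.2, with Shmt2 at 54.4) and Shmt2 ranked first in HPC (76.7, with Mthfd1 at 45.1, as CPM per kilobase).

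RNA of the genes for all 3 steps of serine synthesis was lower in HSC, with a median log2 change of −0.57. Phgdh, which encodes the enzyme that draws carbon from glycolysis into this route (gene 236539, chromosome 3, 98313171 to 98339969, 12 exons), was at 227, 226, 217 and 249 CPM in HSC and at 454, 408, 387 and 444 CPM in HPC. It was 1.84-fold lower (log2 −0.88 ± 0.09, edgeR adjusted p = 2.6e-06), and its change from uniquely placed reads, which made up 82.9%, was −0.90. Psat1, the aminotransferase of the middle step (gene 107272, chromosome 19, 15905123 to 15925059, 10 exons), was at 76.6, 80.2, 77.2 and 88.4 CPM in HSC and 125, 104, 119 and 130 CPM in HPC (log2 −0.57 ± 0.10, edgeR adjusted p = 3.6e-04). Psph, the phosphatase of the last step (gene 100678, chromosome 5, 129765558 to 129787253, 12 exons), was at 42.4, 33.2, 39.3 and 42.1 CPM in HSC and 49.4, 49.9, 49.2 and 52.3 CPM in HPC (log2 −0.35 ± 0.11, edgeR adjusted p = 0.026). The fractions did not overlap at any of the steps, but Psph lost its call under upper quartile scaling and without HSC replicate 2, HSC replicate 3 or HPC replicate 4, with log2 changes from −0.39 to −0.29 over the fits that left out 1 library. Per kilobase of exon Phgdh was the most abundant of the 3, at 123 in HSC and 226 in HPC.

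Of 8 salvage and supply genes 5 were lower in HSC (Prps2, Tk1, Dck, Hprt and Dtymk) and 3 were not called, with a median log2 change of −0.44. Prps1 and Prps2 encode the synthetases of PRPP, which feeds purine and pyrimidine synthesis and base salvage. Prps2 (gene 110639, chromosome X, 167346320 to 167383106, 11 exons) was at 59.1, 61.3, 67.9 and 55.3 CPM in HSC and 116, 105, 148 and 130 CPM in HPC, 2.05-fold lower (log2 −1.03 ± 0.12, edgeR adjusted p = 7.4e-06). Prps1 was at 59.4, 54.4, 52.5 and 54.8 CPM in HSC and 52.9, 55.5, 51.2 and 62.3 CPM in HPC, with overlapping fractions (log2 −0.01 ± 0.11, edgeR adjusted p = 0.98). Per kilobase of exon Prps2 stood below Prps1 in HSC (14.1 and 28.0) and close to it in HPC (28.9 and 28.1, as CPM per kilobase).

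Among the kinases that return deoxynucleosides to the nucleotide pool, Dck and Tk1 were lower in HSC, while the mitochondrial kinases Tk2 and Dguok, which are not among the 37 and are named here after their values were seen, were not. Tk2 averaged 54.0 CPM in HSC, with 41.2 CPM in HPC, and was higher (log2 0.39 ± 0.13, edgeR adjusted p = 0.035), a call lost in 7 of the 8 fits that left out 1 library. Dguok averaged 81.6 CPM in HSC, with 71.9 CPM in HPC, and was not called (edgeR adjusted p = 0.21). Dck, the deoxycytidine kinase (gene 13178, chromosome 5, 88765013 to 88783277, 7 exons), was at 63.1, 56.1, 54.1 and 48.2 CPM in HSC and 92.4, 90.1, 93.0 and 91.9 CPM in HPC, 1.66-fold lower (log2 −0.73 ± 0.10, edgeR adjusted p = 5.6e-05). Tk1, the cytosolic thymidine kinase of dividing cells (gene 21877, chromosome 11, 117815519 to 117826087, 15 exons), was at 70.8, 59.8, 47.1 and 76.9 CPM in HSC and 131, 107, 99.2 and 112 CPM in HPC, 1.76-fold lower (log2 −0.82 ± 0.14, edgeR adjusted p = 3.7e-04). The HPC values of Dck were nearly identical to each other, while Tk1 varied more within each fraction. Dtymk, which phosphorylates thymidine monophosphate, was 1.26-fold lower at 106 ± 11.3 CPM in HSC, against 133 ± 7.81 CPM in HPC (SD, n = 4 each; edgeR adjusted p = 0.015), and lost its call under upper quartile scaling and without HSC replicate 3 (log2 changes from −0.41 to −0.27 over the fits that left out 1 library).

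The base salvage enzymes differed from each other. Hprt, which recovers hypoxanthine and guanine (gene 15452, chromosome X, 52988078 to 53021660, 9 exons), was 1.45-fold lower at 189 ± 23.4 CPM in HSC, against 273 ± 35.6 CPM in HPC (edgeR adjusted p = 0.0020). Aprt, which recovers adenine, was at 122, 97.4, 83.6 and 123 CPM in HSC and at 82.0, 73.3, 81.6 and 102 CPM in HPC. It was not called (log2 0.33 ± 0.14, edgeR adjusted p = 0.074), and passed the threshold with the replicate number as a block (adjusted p = 0.023), under upper quartile scaling (0.035), under voom with sample quality weights (0.050) and without HSC replicate 3 (0.017) or HPC replicate 4 (0.028). Nme1, a nucleoside diphosphate kinase and per kilobase of exon the most abundant gene of this group (223 in HSC and 218 in HPC), was at 257, 244, 239 and 364 CPM in HSC and 287, 257, 225 and 309 CPM in HPC. HSC replicate 4 was the highest library, the fractions overlapped, and there was no call (log2 0.03 ± 0.14, edgeR adjusted p = 0.87).

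Related genes of the same reaction shifted unequally between the fractions. For 8 pairs the log2 ratio of reads per kilobase of exon, gene over gene within a library, was compared by an exact two-sided permutation test of 4 against 4 libraries, whose smallest possible p is 0.0286. In 7 of 8 pairs the libraries of the fractions did not overlap and the test gave that smallest p (exact permutation p = 0.0286, or 0.0327 after Benjamini-Hochberg adjustment over 8 pairs). Of all single genes tested, 36.7% had fractions that did not overlap, and no such share was taken over other pairs of genes. Each pair held a gene already called singly, so the ratios are no separate support for those calls. The ratio of Adss to Adssl1 was higher in HSC, at log2 values of 1.61, 1.29, 1.39 and 1.58 in HSC and −0.15, 0.15, 0.42 and 0.28 in HPC, a difference of 1.29. These values put Adss 2.76-fold above Adssl1 in HSC and 1.13-fold above it in HPC. Impdh2 exceeded Impdh1 11.5-fold in HSC and 5.75-fold in HPC (mean log2 3.52 ± 0.17 and 2.52 ± 0.16, SD, n = 4 each). Uniquely placed were 44.0% of the exon reads of Impdh2 and 100% of those of Impdh1, so the size of both folds is uncertain. The log2 difference between the fractions was 0.99 from uniquely placed reads alone and 1.0 from all exon reads.

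Ratios of the other pairs went both ways. Mthfd1 over Mthfd1l was 4.99 in HSC and 2.57 in HPC (log2 difference 0.96). The Prps1 to Prps2 ratio was 1.98 in HSC and 0.976 in HPC (1.02), and that of Shmt2 to Shmt1 was 2.78 in HSC and 1.72 in HPC (0.69). Lower in HSC were the ratio of Rrm2 to Rrm2b and that of Mthfd2 to Mthfd2l. Rrm2 exceeded Rrm2b 18.2-fold in HSC and 38.8-fold in HPC, a log2 difference of −1.09, which was −0.41 when reads over whole genes were counted, most of those of Rrm2b being intronic. Mthfd2 exceeded Mthfd2l 1.45-fold in HSC and 2.66-fold in HPC (−0.87), with HPC replicate 2 at a log2 ratio of 0.84 and the other HPC libraries at 1.55 to 1.64. The ratio of Ctps to Ctps2 overlapped between fractions, at 0.993 in HSC and 1.25 in HPC (log2 difference −0.34, exact permutation p = 0.0571, adjusted p = 0.0571). These ratios need no scaling between libraries, but they show unequal change of the paired genes and not which of them changed.

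**Figure D3:**
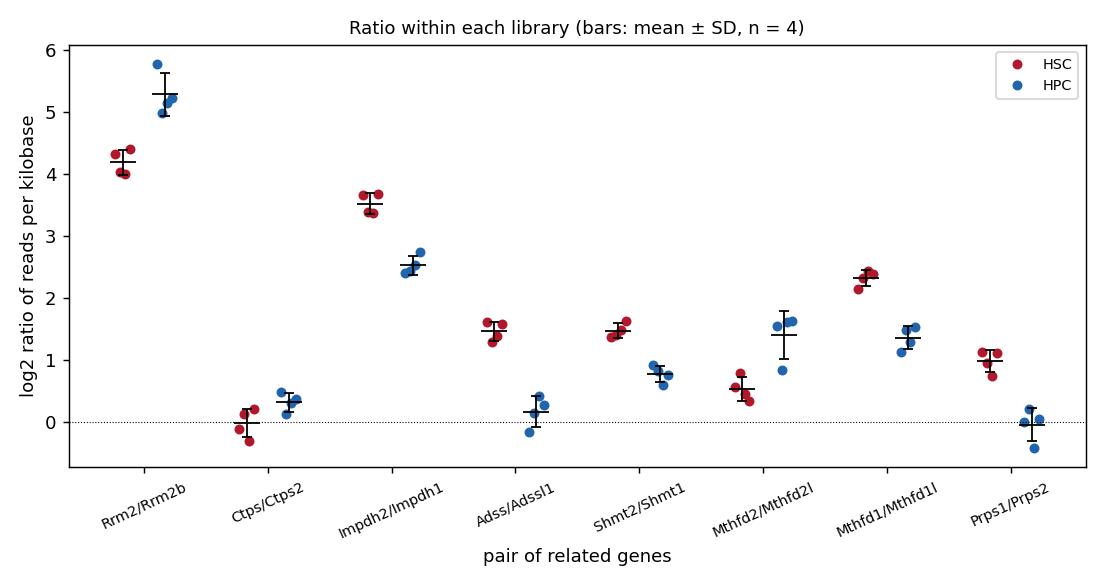
Log2 ratio of reads per kilobase of exon for 8 pairs of related genes (x axis), 1 point per library, HSC red at left and HPC blue at right of each pair, with mean and SD bars. The point clouds lie apart in 7 pairs and meet for Ctps/Ctps2; 5 pairs (Impdh2/Impdh1, Adss/Adssl1, Shmt2/Shmt1, Mthfd1/Mthfd1l and Prps1/Prps2) are higher in HSC, while Rrm2/Rrm2b and Mthfd2/Mthfd2l are lower.

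Other genes of nucleotide and one-carbon metabolism went both ways, and their difference from the 37 enzymes was not tested. Of 69 further genes listed, 61 passed the filter on low counts, and of these 16 were higher in HSC (26.2%, beside 19.6% of all genes tested) and 12 lower (19.7%, beside 17.6%), with a median log2 change of 0.05. Among 18 genes of nucleotide breakdown 15 were tested, 7 were higher in HSC, 2 lower and 6 not called. Upp1, a uridine phosphorylase, was at 32.6, 30.3, 29.4 and 25.4 CPM in HSC and 2.91, 4.17, 4.96 and 4.64 CPM in HPC, which is 7.05-fold higher (log2 2.82 ± 0.19, edgeR adjusted p = 4.2e-08). Gda, which deaminates guanine, was at 41.9, 34.8, 22.2 and 22.6 CPM in HSC and 5.39, 0.745, 1.34 and 1.60 CPM in HPC, which is 13.4-fold higher (log2 3.74 ± 0.45, edgeR adjusted p = 1.3e-05), with HPC replicate 1 above the other HPC libraries. Without that library Gda was 24.6-fold higher (log2 4.62), and leaving out any other library gave log2 changes from 3.44 to 3.87. The AMP deaminase gene Ampd3 was 4.24-fold higher and Nt5c3, a cytosolic nucleotidase of pyrimidine nucleotides, 2.06-fold higher. Of the exon reads of Ampd3, 53.5% were uniquely placed. Ada, the adenosine deaminase, was an exception at 18.1 ± 0.618 CPM in HSC, against 40.5 ± 4.31 CPM in HPC, 2.24-fold lower (edgeR adjusted p = 4.7e-06).

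Of 4 nucleoside transporter genes 3 were lower in HSC and 1 was not called. Among all genes tested 17.6% were lower and 19.6% higher, to be read beside each count in this paragraph. Slc28a2, a sodium-coupled nucleoside transporter, was 1.90-fold lower, at 45.2, 37.4, 38.0 and 33.9 CPM in HSC and 71.0, 76.2, 72.6 and 73.2 CPM in HPC. Slc29a3 was 1.85-fold lower and Slc29a1 1.34-fold lower. Of 19 further salvage enzymes and nucleotide kinases 5 were higher (26.3%), 3 lower (15.8%) and 11 not called. The adenylate kinase gene Ak1 was 7.68-fold higher at 45.3 CPM in HSC, against 5.89 CPM in HPC (edgeR adjusted p = 3.5e-07), while Nme4 was 1.49-fold lower. Of 13 other folate genes, 11 of them tested, 2 were higher (18.2%) and 1 lower (9.09%). Of 4 glycine cleavage genes 3 were tested and Amt was higher (2.50-fold). Of 5 methionine cycle genes 3 were tested and Ahcy was lower (1.43-fold, 28.8% of its reads uniquely placed). Of 6 genes that control dUTP and deoxynucleotides 1 was higher and 2 were lower. Several of these calls were lost in some of the 8 fits that left out 1 library. Among higher genes this was so in 6 fits for Nme3, 5 for Aldh1l1, 4 for Slc19a1 and 3 for Cmpk2, beside Tk2 above. Among lower genes it was so in 6 fits for Itpa and 3 for Nudt1.

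Summed over their genes, 4 of the 5 branches lay lower in each HSC library than in any HPC library, and the breakdown genes lay higher. The purine genes summed to 2276 ± 117 CPM in HSC, against 2833 ± 120 CPM in HPC (SD, n = 4 each), and the pyrimidine and deoxynucleotide genes to 1085 ± 55.5 and 1564 ± 69.8 CPM. The serine genes summed to 350 ± 20.8 CPM in HSC, against 593 ± 39.3 CPM in HPC. Folate genes overlapped between fractions, at 469 to 531 CPM in HSC and 509 to 625 CPM in HPC. Salvage and supply genes summed to 791 to 1039 CPM in HSC and 1049 to 1270 CPM in HPC, so the fractions lay close together but apart. The breakdown genes summed to 921 to 990 CPM in HSC and 657 to 706 CPM in HPC. The sums are dominated by the abundant genes of each list and were not tested.

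**Figure D4:**
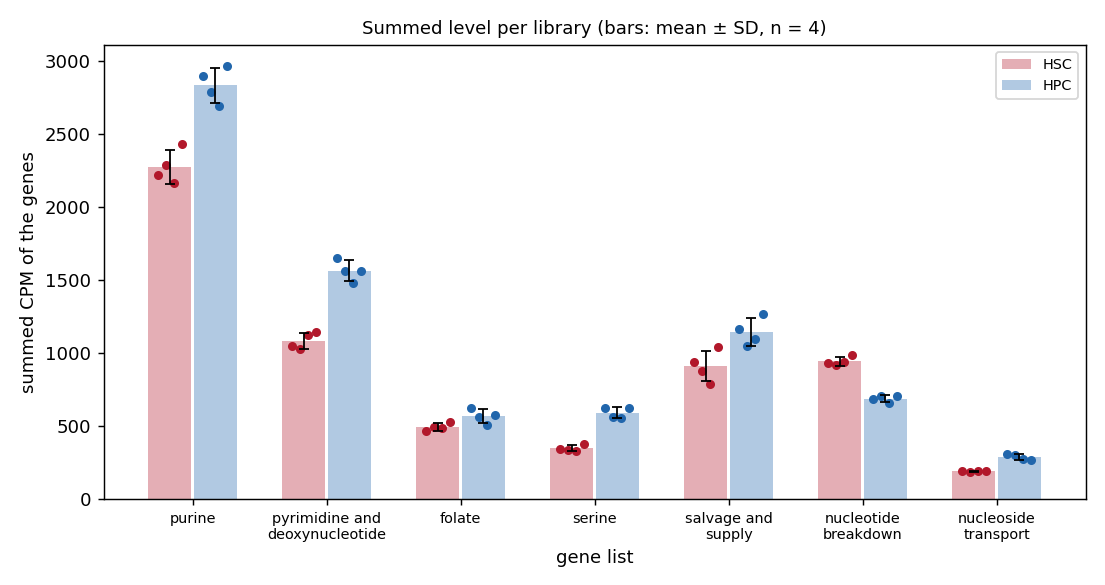
Summed CPM (y axis) of the genes of 5 branches of synthesis, of nucleotide breakdown and of nucleoside transport, 1 point per library, with bars for the mean and error bars for the SD (n = 4), HSC left and HPC right. Synthesis branches and transport stand lower in HSC, though the folate points overlap, and nucleotide breakdown stands higher, at 946 against 688 CPM.

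Genes of cell division listed beside these enzymes were lower in HSC as well, where 17.6% of all genes tested were lower. All 15 S phase genes listed were lower in HSC, with a median log2 change of −0.76, and summed to 2465 to 2899 CPM in HSC and 4175 to 4904 CPM in HPC. All 10 mitosis genes listed were lower as well, with a median of −1.32, and summed to 730 to 838 CPM in HSC and 1763 to 2238 CPM in HPC. Mcm6, a subunit of the replicative helicase, was 1.83-fold lower, and Top2a, a DNA topoisomerase, 3.17-fold lower. Of 12 regulator genes 2 were higher and 7 lower, beside 19.6% and 17.6% of all genes tested. Myc, a transcription factor known to drive nucleotide synthesis genes, was at 345 ± 24.4 CPM in HSC, against 560 ± 30.8 CPM in HPC, its relative Mycn, picked out after its values were seen, at 488 ± 17.2 and 164 ± 13.5 CPM, and Atf4, known to drive serine synthesis genes and likewise picked out, was not called at 87.6 ± 15.4 and 86.4 ± 14.5 CPM. The part of cell division in the lower levels of the enzymes was not tested.

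Some genes listed as markers of blood cell lineages also differed between the fractions. Beside the counts of calls on these short lists, 17.6% of all genes tested were lower in HSC and 19.6% higher. The 8 neutrophil and monocyte markers summed to 226 to 421 CPM in HSC and 1798 to 2870 CPM in HPC. HSC replicate 2 was at 421 CPM and the other HSC libraries at 226 to 264 CPM. Mpo alone averaged 65.8 CPM in HSC and 1947 in HPC. Of 6 tested 2 were lower, Mpo and Elane, while Lyz2, S100a8, S100a9 and Ngp were not called. The 6 mast cell, basophil and eosinophil markers summed to 7.49 to 97.4 CPM in HSC and 148 to 251 CPM in HPC. Of 5 tested 3 were lower. The sum of 97.4 CPM was that of HSC replicate 3, with Prg2 at 55.2 CPM, and the other HSC libraries summed to 7.49 to 17.4 CPM. Prss34 averaged 11.6 CPM in HSC and 65.8 in HPC, but its fractions overlapped, with HSC replicate 3 at 28.8 CPM and HPC replicate 3 at 17.9 CPM. The 7 red cell markers found summed to 183 to 462 CPM in HSC and 40.9 to 161 CPM in HPC. In both fractions replicate 1 had the highest sum, and the others were at 183 to 231 CPM in HSC and 40.9 to 90.5 CPM in HPC. Hba-a1 averaged 105 CPM in HSC and 26.9 in HPC, and 3 of 7 were higher. The 5 megakaryocyte markers summed to 164 to 240 CPM in HSC and 148 to 200 CPM in HPC, with Itga2b averaging 76.4 CPM in HSC and 93.8 in HPC, and 2 were higher and 1 lower. The 8 B, T and NK cell markers summed to 88.7 to 116 CPM in HSC and 289 to 377 CPM in HPC, with Nkg7, which was lower, averaging 44.6 CPM in HSC and 330.0 in HPC, while 6 of the 8 were higher. No marker on these lists was at 0 reads in all libraries, and the part of cells of these lineages in the levels of the enzymes was not tested.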

How the data were processed

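RNA of 4 HSC and 4 HPC libraries was sequenced. Per the labels' protocols, cDNA was amplified by 18 cycles of PCR, so reads are not independent molecules, and limits from counts cover counting error only. Per the submitters' processing notes the build was mm10, and the sources used here name no aligner, counter or use of strand. The deposited counts are whole reads per annotation row, per the file headers. The deposited RPKM and TPM, scaled by the authors to depth, were read to check the units and not tested.

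Total exon reads were summed per gene ID and tested with edgeR 4.0.16 in R 4.3.3 (filterByExpr, TMM, quasi-likelihood F test, no covariate, Benjamini-Hochberg, threshold 0.05). Changes are HSC over HPC, and a change over the root of its F gives the SE. TMM-scaled CPM are used as levels. Pair ratios used reads plus 0.5. On simulated counts for these libraries (12644 genes tested), the test recovered 60 of 100 genes altered 1.5-fold and 86 of 100 altered 2-fold, with 8 false calls of 154. Far fewer genes were altered there than were called in the data (4733, or 37.1% of genes tested), and they were not matched to the 37 genes in read count. The shares recovered therefore do not give the power for these 37 genes. No 2 libraries of a fraction looked like 1 library deposited again (mean chi-square per gene at least 11.5). The biological coefficient of variation was 18.3%.

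The members, lists and tests were chosen with earlier results of these data known. Per branch, the 3 called members with the smallest adjusted p, the most abundant one and both genes of a pair whose ratio differed are given by library, and of the further pathway genes up to 6 called in each direction. Of each list beside them the most abundant gene is named. Of the marker symbols, Ahsp matched no row. Alternatives were RLE and upper quartile scaling, other count filters, a replicate block, DESeq2 1.42.0, voom of limma 3.58.1, other read classes, main-assembly rows, a tested fold of 1.5, a threshold of 0.01, a pseudocount of 5 reads for ratios, and libraries left out. The values of 1 further gene are not reported here.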

Additional observations from a re-analysis of the deposited data

Results flagged for a closer look

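Among 90 groups of 4 values (37 genes and 8 pair ratios in each fraction), 3 held a library far from its fellows, and chance alone puts about 1 in 20 groups past the limit used. Nme1 was at 364 CPM in HSC replicate 4 and at 239 to 257 CPM in the other HSC libraries. Impdh1 was at 147 CPM in HPC replicate 1 and at 122 to 126 CPM in the other HPC libraries. The log2 ratio of Mthfd2 to Mthfd2l was 0.84 in HPC replicate 2 and 1.55 to 1.64 in the other HPC libraries.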

How the results depend on the processing

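Of 777 values of the 37 genes under an alternative, 745 kept their call or lack of one, 25 lost the call, 6 gained one, and 1 called gene reversed, Rrm2b, at −0.11 on gene reads. Among the 745, 15 values of 4 genes never called there (Adss, Nme1, Pfas and Prps1) had the other sign, none past 0.13 in size. On gene reads 1 gene was higher. With a fold of 1.5 required by the test, 6 of the 37 genes were lower and 0 higher (edgeR; 21 and 2 without that demand, and 21 and 2 by DESeq2), and 7 of the 61 further pathway genes were higher and 2 lower, where 10.2% of all genes were higher and 6.30% lower. At an adjusted p under 0.01, 10 of the further genes were higher and 8 lower, and of the 37 genes 2 were higher and 19 lower, without Dtymk and Psph, where 14.3% of all genes were higher and 12.5% lower. The 37 genes' median was −0.29 under upper quartile scaling, which moved the median of all genes to 0.08, and −0.44 to −0.33 when 1 library was left out. In those fits 19 to 21 of the 37 were lower and 2 to 3 higher, and 12 to 14 of the further genes were higher and 9 to 13 lower. Whether the replicate numbers shared by the titles pair the libraries cannot be told. Deviations of same-numbered libraries (1 to 4) correlated at −0.01, −0.14, 0.14 and 0.22. Those of differently numbered libraries correlated at −0.286 to 0.12. With the replicate block, 22 of the 37 were lower and 3 higher. For the pair ratios, pairing libraries by number leaves the mean difference the same by construction, so it is no check. With 4 pairs of libraries no p under 0.125 is possible. The cause of these shifts was not tested. Reads that map to several places limit the level of Impdh2.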
